A study of Homo sapiens with 6 samples.

Results

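The genes described here are 10 members of the Notch signalling pathway: the receptors NOTCH1, NOTCH2, NOTCH3 and NOTCH4, the ligands JAG1, JAG2, DLL1 and DLL4, and the target genes HES1 and HEY1. They were taken by name from a list and not by a cut-off on measured values. Earlier results of these data were known when the list was chosen. The members are 10 of 20163 protein-coding genes on chromosomes 1 to 22, X and Y. The region of each gene ran from 50 kb upstream of its 5′ end to its 3′ end. Within these regions lay 41 of the 56419 union loci, which are sites where ATAC-seq summits of the 6 libraries, each widened by 250 bp on either side, overlapped. ATAC-seq marks open chromatin with a transposase that inserts sequencing adapters into accessible DNA, and a summit is the point of highest signal within a called peak. There were 3 libraries of parental MDA-MB-231 cells, a human triple-negative breast tumour line in established culture, kept in DMEM with fetal bovine serum, and 3 libraries of SAP30-KO1 cells. SAP30-KO1 is a derivative of that line whose SAP30 gene, encoding one subunit of the SIN3 corepressor complex, was disrupted with a CRISPR guide expressed from the lentiCRISPRv2 vector, and per the study's methods such a line is a mixture of several selected knockout cells, not a single clone. The comparison asked whether open chromatin at the Notch genes differed between the 2 groups. Nothing states that the 3 libraries of a group came from separate cultures, so each p-value measures only the spread between these libraries.

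Notch receptors are single-pass membrane proteins that are activated by ligands of the Jagged and Delta families on neighbouring cells. Ligand binding lets an ADAM protease and then γ-secretase cut the receptor, and the freed intracellular domain enters the nucleus, where it joins the DNA-binding protein RBPJ and Mastermind coactivators to switch on genes such as HES1 and HEY1. In triple-negative breast cancer, NOTCH1, NOTCH3 and JAG1 are known for roles in growth, invasion and maintenance of stem-like cells. ATAC-seq reports whether DNA is accessible, not how much RNA or protein is made.

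The following sequences belong to sites that are described in the results below. They comprise the JAG1 upstream site found in SAP30-KO1 libraries alone (chr20:10695741-10696040), the highest-ranked site of the JAG1 region (chr20:10686467-10686766), both HES1 upstream sites at which the groups did not overlap (chr3:193809138-193809437 and chr3:193852691-193852990), and the 300 bases before the HES1 start site (chr3:193853637-193853936). Each was read from the GRCh37 (hg19) genome as 300 bases in the direction in which the gene is transcribed, which is the minus strand for JAG1 and the plus strand for HES1. Capitals mark matches, on either strand, to the RBPJ core TGGGAA, the AP-1 site TGANTCA and the TEAD site GGAATG, so that TTCCCA and CATTCC are an RBPJ and a TEAD match on the opposite strand.
JAG1 -41.2 kb: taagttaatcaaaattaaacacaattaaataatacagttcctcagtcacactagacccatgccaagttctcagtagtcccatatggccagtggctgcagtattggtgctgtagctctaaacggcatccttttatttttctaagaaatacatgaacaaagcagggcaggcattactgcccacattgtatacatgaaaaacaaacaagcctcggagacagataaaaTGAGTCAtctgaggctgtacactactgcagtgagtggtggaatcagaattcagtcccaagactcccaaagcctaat
JAG1 -32.0 kb: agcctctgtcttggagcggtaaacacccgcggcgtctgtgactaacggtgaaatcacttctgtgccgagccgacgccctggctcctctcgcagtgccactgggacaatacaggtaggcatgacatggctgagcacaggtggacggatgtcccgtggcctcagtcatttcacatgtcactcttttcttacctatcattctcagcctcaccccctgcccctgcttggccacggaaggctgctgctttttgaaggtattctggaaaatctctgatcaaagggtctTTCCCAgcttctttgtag
HES1 -44.6 kb: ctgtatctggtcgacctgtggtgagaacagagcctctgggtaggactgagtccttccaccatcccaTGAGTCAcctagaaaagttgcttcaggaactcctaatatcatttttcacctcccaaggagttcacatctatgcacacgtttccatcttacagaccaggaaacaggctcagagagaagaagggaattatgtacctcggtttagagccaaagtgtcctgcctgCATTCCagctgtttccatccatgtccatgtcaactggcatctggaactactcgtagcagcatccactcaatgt
HES1 -1.1 kb: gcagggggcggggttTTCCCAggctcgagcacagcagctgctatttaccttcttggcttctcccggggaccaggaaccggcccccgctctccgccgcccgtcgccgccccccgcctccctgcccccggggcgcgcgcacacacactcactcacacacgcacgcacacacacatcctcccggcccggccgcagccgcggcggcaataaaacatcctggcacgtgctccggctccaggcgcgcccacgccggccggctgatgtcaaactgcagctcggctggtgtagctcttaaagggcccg
HES1 promoter: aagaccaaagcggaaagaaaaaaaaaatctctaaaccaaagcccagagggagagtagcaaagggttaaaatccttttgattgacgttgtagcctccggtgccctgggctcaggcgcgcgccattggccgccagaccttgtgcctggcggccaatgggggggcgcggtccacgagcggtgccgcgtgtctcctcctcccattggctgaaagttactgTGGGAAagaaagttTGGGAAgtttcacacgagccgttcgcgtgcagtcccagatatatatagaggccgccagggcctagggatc

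The sequence before the HES1 start site holds 2 copies of the RBPJ core in the same orientation. The JAG1 site at -41.2 kb and the HES1 site at -44.6 kb each hold 1 AP-1 match, and the other sequences shown hold none. Over the 300 bases around the summit, 12 of the 41 Notch loci (29.3%) had an RBPJ match, against 25.1% of all union loci. An AP-1 match was present at 11 (26.8%, against 29.5%) and a TEAD match at 6 (14.6%, against 20.9%). The AP-1 share depended on location. Away from promoters of any gene it was 32% of Notch loci and 36.7% of all loci, and at promoters 18.75% and 12.6%. A motif match is a description of the letters and not evidence that a factor was bound.

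The parental lists held 36694, 30477 and 33552 summits and the SAP30-KO1 lists 29762, 40650 and 34262. The lists give no read counts, so the sequencing depth is unknown, and a site without a summit is one that was not called, not one shown to be closed. Each summit carries a score, the −log10 of its q value, which was converted to its percentile rank within its own list (0 to 100), with 0 for no summit. SAP30 itself had a promoter summit in all 6 libraries, which does not check the knockout, because summits do not show the edited sequence. Promoter summits of VIM, CD44 and EGFR, 3 of 6 mesenchymal and basal-like markers, were present in all 6 libraries. The rest of that list, AXL, ZEB1 and FOSL1, had one in 3, 3 and 2 libraries. None of 5 luminal markers had a summit in all 6 (GATA3 had one in 5 libraries and SPDEF in none), and the endothelial, blood and adipocyte markers that could be looked up (CDH5, PTPRC, CD3E and ADIPOQ) had none in any.

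The number of open sites at the Notch genes did not differ between the groups beyond the spread of the libraries, and most sites lay outside the genes' own promoters. The 10 regions held 30, 25 and 22 summits in parental and 26, 32 and 24 in SAP30-KO1 libraries. The means were 25.7 ± 4.04 and 27.3 ± 4.16 (SD, n = 3), and the difference of 1.67 did not exceed the replicate SD (two-sided exact permutation p = 0.6). As a share of each list the means were 0.0765% and 0.0787% (two-sided exact permutation p = 0.7). With 3 libraries against 3 the smallest p this test can give is 0.1, so no single comparison here could pass 0.05. The difference in summit number became -0.667 without SAP30-KO1 replicate 2, the longest list, and -0.167 without Parental replicate 3.

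Of the 41 loci, 8 lay at a member's own promoter (within 1 kb of any annotated start site), 8 at the promoter of another gene, 9 in a member's intron, 1 in a member's exon, 6 inside another gene and 9 between genes. A member's own promoter took precedence in this sorting. The own-promoter loci of NOTCH1, DLL1, HES1 and HEY1 also lay within 1 kb of another gene's start site. A summit was present in all 6 libraries at 12 loci (29.3%, against 28.9% of all union loci) and in a single library at 10 (24.4%, against 28.5%). The receptor regions held 19 loci, the ligand regions 12 and the target gene regions 10, and each of these classes had 4 loci that were present in all 6 libraries. NOTCH2, the longest region at 239 kb, held 11 loci and NOTCH3 held 1, with a median of 3.5 per member against 3 over all protein-coding genes. The map of open sites along the 10 genes shows that sites lay upstream of the start site in every region.

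**Figure D1:**
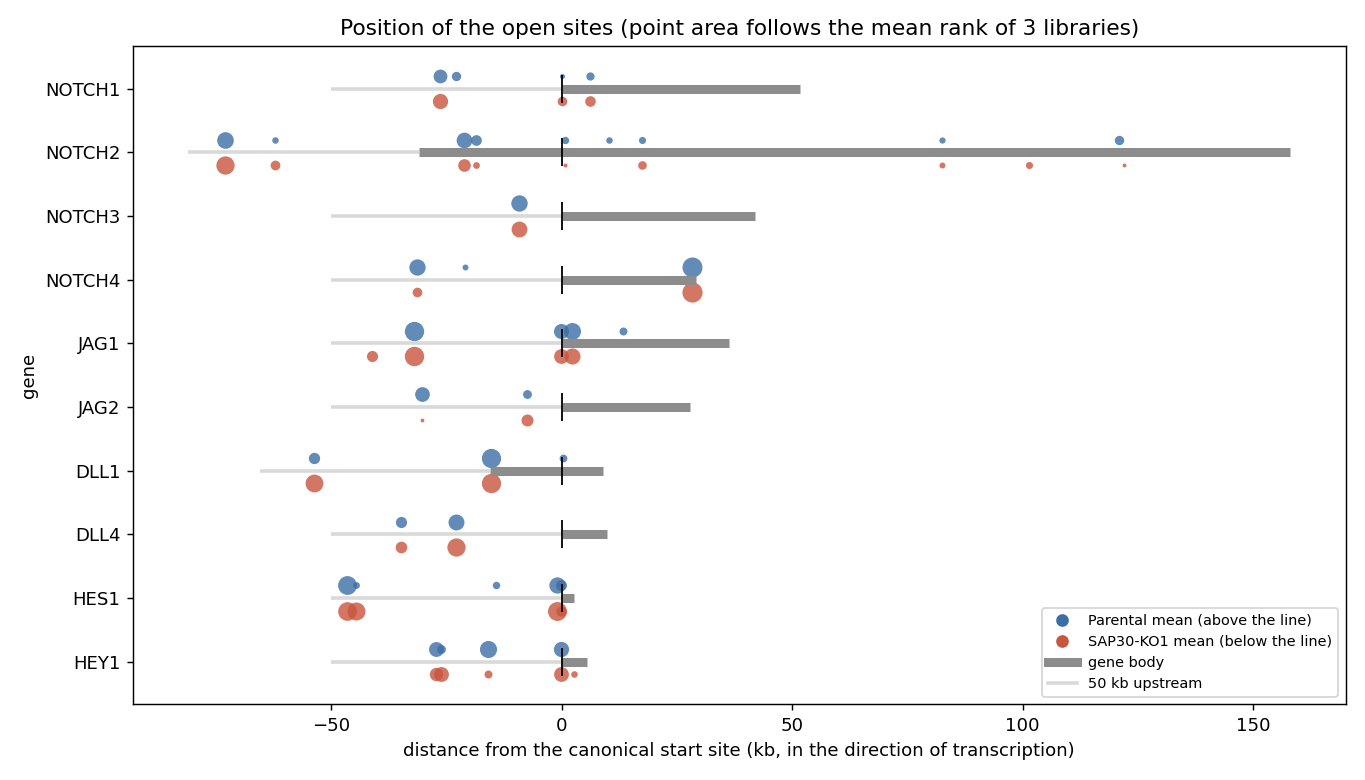
Open sites of the 10 Notch genes, with distance from the canonical start site in kb on the x axis and 1 gene per row. Point area follows the mean percentile rank of 3 libraries, parental above and SAP30-KO1 below each line, the dark bar is the gene body and the light line the 50 kb before it. NOTCH3 has a single site, 9.31 kb upstream, of like size in both groups.

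At promoters, the members fell into genes that were open in every library, genes open in some, and genes never called. JAG1, DLL1 and HEY1 had a promoter summit in all 6 libraries, HES1 in 5, NOTCH2 in 4 and NOTCH1 in 2. NOTCH3, NOTCH4, JAG2 and DLL4 had none in any library, as was the case for 37.7% of all protein-coding genes. The number of members with a promoter summit was 6, 5 and 4 in the parental and 4, 6 and 4 in the SAP30-KO1 libraries (5 ± 1 and 4.67 ± 1.15, SD, n = 3; two-sided exact permutation p = 1). The difference, -0.333 with all libraries, became 0.167 when Parental replicate 1 was left out and 0 without SAP30-KO1 replicate 1 or 3. The promoter rank averaged over all 10 genes was 26.7, 17.4 and 25.0 in the parental and 19.4, 32.5 and 16.6 in the SAP30-KO1 libraries. The groups overlapped in both measures.

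None of the 10 members, and none of the 6 with a promoter summit in any library, had promoter ranks in which the groups did not overlap, while 10.6% of the 12564 genes with a promoter summit in any library did (6.01% higher and 4.58% lower in SAP30-KO1). The exact permutation test gave each of the 6 an adjusted p of 1 over these 12564 genes. The median difference was -2.20 percentile points over the 6 members and 0.679 over all genes. Limma was fitted to the 6966 genes with a promoter summit in all 6 libraries, and it called 0 (0.0%) at an adjusted p of 0.05, while 461 (6.62%) had an unadjusted p of 0.05 or less.

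**Figure D2:**
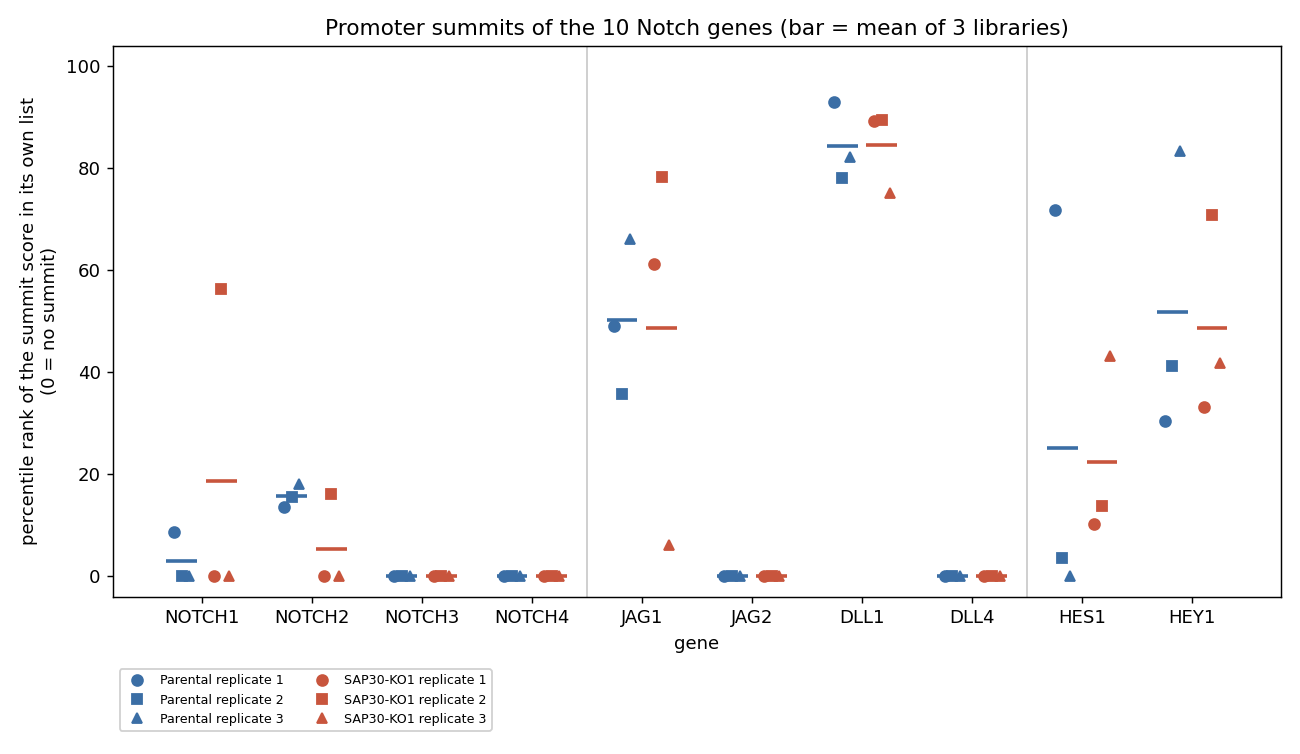
Percentile rank of the best promoter summit of each Notch gene (y axis, 0 to 100, 0 for no summit), for receptors, ligands and target genes from left to right. Each point is 1 library and each bar the mean of 3, and the groups overlap for every gene, with DLL1 the highest by mean in both groups.

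Among the receptors, NOTCH1 (chr9:139388885-139440500, minus strand), a receptor found mutated in T-cell leukaemia, had promoter ranks of 8.77, 0 and 0 in parental and 0, 56.3 and 0 in SAP30-KO1 libraries. A single library of each group thus had a summit, and the group values overlapped (2.92 ± 5.06 and 18.8 ± 32.5, SD, n = 3; two-sided exact permutation p = 1). The difference of 15.8 rested on SAP30-KO1 replicate 2 and was -2.92 without it. The strongest NOTCH1 site was intergenic, 26.3 kb upstream (chr9:139466263-139467189), and was present in all 6 libraries. It ranked at 36.5, 32.0 and 56.8 in parental and at 53.7, 61.1 and 39.95 in SAP30-KO1 cells, again with overlap (two-sided exact permutation p = 0.3).

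NOTCH2 (chr1:120454176-120643366, minus strand), a receptor with a very similar domain structure, had low promoter ranks of 13.6, 15.5 and 18.1 in parental and 0, 16.1 and 0 in SAP30-KO1 libraries. All 3 parental libraries but only SAP30-KO1 replicate 2 had a summit, and the value of that library lay between parental ones (15.8 ± 2.28 and 5.37 ± 9.29, SD, n = 3; difference -10.4; two-sided exact permutation p = 0.3). Without SAP30-KO1 replicate 2 the groups no longer overlapped and the difference was -15.8, while at a q value of 0.0001 or less no summit was left in either group and it was 0. The summits of Parental replicate 3 and SAP30-KO1 replicate 2 that set these values were not at the canonical start site but at an internal one, 82.5 kb further into the gene. NOTCH2 has near-identical partial copies elsewhere on chromosome 1, and the handling of reads that align to several places is not given in the sources used here, so its values are uncertain. Its strongest site, intergenic and 42.1 kb beyond the 5′ end (chr1:120685200-120686032), ranked at 67.6, 65.4 and 53.7 in parental and at 67.6, 78.3 and 81.5 in SAP30-KO1 cells. The lowest SAP30-KO1 library lay just below the highest parental one, so the groups overlapped (two-sided exact permutation p = 0.2).

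NOTCH3 (chr19:15269849-15311806, minus strand), a receptor best known from vascular smooth muscle, was searched along 50 kb before its start site and its whole length. This stretch held 1 summit in each parental library and 2, 1 and 1 in the SAP30-KO1 libraries, all at a single intergenic locus 9.31 kb upstream. Its ranks were 45.8, 79.0 and 56.4 in parental and 43.8, 56.0 and 69.2 in SAP30-KO1 libraries. The site was therefore open in every library at a medium to high rank, and the groups overlapped (60.4 ± 16.9 and 56.3 ± 12.7, SD, n = 3; difference -4.05; two-sided exact permutation p = 0.7). The difference was 5.24 without Parental replicate 2 and 2.20 without SAP30-KO1 replicate 1.

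Summits of the NOTCH3 site lay 9339, 9314 and 9285 bp upstream in the parental libraries. In SAP30-KO1 replicate 1 there were 2 summits, at 9278 and 9667 bp, and in replicates 2 and 3 the summit was at 9663 and 9490 bp. The parental positions were close to each other, and SAP30-KO1 replicates 1 and 2 had a summit near the far end of the site that no parental library had. A region with at most 1 locus was not rare: it was found for 29.9% of all protein-coding genes and for 57.3% of the 7599 genes without a promoter summit.

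NOTCH4 (chr6:32162620-32191844, minus strand), a receptor mainly of endothelial cells, had no promoter summit. The strongest site of its region lay inside the last part of the gene, 28.3 kb from the start, at the promoter of the neighbouring gene GPSM3, which encodes a G protein signalling modulator. It ranked at 96.0, 89.0 and 88.5 in parental and 86.1, 93.7 and 97.9 in SAP30-KO1 cells, which was high in all 6 libraries and overlapped between groups (two-sided exact permutation p = 0.9). A further NOTCH4 site lay 31.5 kb upstream at the start of the antisense RNA gene TSBP1-AS1, with ranks of 64.9, 78.1 and 36.1 in parental and 0, 50.05 and 7.26 in SAP30-KO1 cells. The groups overlapped there too (two-sided exact permutation p = 0.2).

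Among the ligands, JAG1 (chr20:10618332-10654647, minus strand), which binds several Notch receptors, had promoter ranks of 49.0, 35.7 and 66.2 in the parental and 61.2, 78.4 and 6.18 in the SAP30-KO1 libraries. SAP30-KO1 held both the highest and the lowest value, and the group means were close (50.3 ± 15.3 and 48.6 ± 37.7, SD, n = 3; two-sided exact permutation p = 0.9). Limma gave a difference of -1.69 with a standard error of 18.3 (adjusted p = 0.996). It was 19.5 without SAP30-KO1 replicate 3 and 6.25 without Parental replicate 3. The site 32.0 kb upstream (chr20:10686367-10687206), inside the long noncoding RNA gene LINC01752, was higher in rank than the promoter in every library, at 70.3, 94.5 and 90.5 in parental and 79.6, 95.5 and 82.3 in SAP30-KO1 cells. These values overlapped (two-sided exact permutation p = 0.9). The site 2.21 kb downstream of the start was also present in all 6 libraries.

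The JAG1 site 41.2 kb upstream (chr20:10695425-10696202), in the same noncoding gene, differed in presence. No parental library had a summit there, and the SAP30-KO1 libraries ranked at 43.1, 24.9 and 10.6. All 3 SAP30-KO1 values were above the parental 0 (26.2 ± 16.3, SD, n = 3; two-sided exact permutation p = 0.1, the smallest possible, adjusted p = 0.988 over all union loci). Summits in every library of one group and none of the other always give the smallest value that the two-sided exact permutation test allows. The test result therefore restates this pattern of presence and adds no support. This JAG1 site was the only Notch locus with a summit in all libraries of one group and none of the other. Of all union loci, 1.43% were present in the 3 SAP30-KO1 libraries alone and 0.876% in the 3 parental libraries alone. The groups overlapped, with a difference of 12.7, at a q value of 0.0001 or less, of 14.4 with every list cut to the length of the shortest, and of 22.7 with summits widened by 100 bp.

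DLL1 (chr6:170591294-170615653, minus strand), a Delta-type ligand, had the highest mean promoter rank of the 10 genes in both groups, with ranks of 93.0, 78.1 and 82.2 in the parental and 89.3, 89.6 and 75.2 in the SAP30-KO1 libraries. The groups covered almost the same range (84.4 ± 7.70 and 84.7 ± 8.24, SD, n = 3; two-sided exact permutation p = 1). The difference in the limma fit was 0.256 with a standard error of 6.63 (adjusted p = 0.999). It turned to between -2.92 and -0.854 without Parental replicate 2 or 3 or SAP30-KO1 replicate 1 or 2. This summit lay at the 5′ end of the longest transcript, 15.4 kb upstream of the canonical start site, where start sites of DLL1 and FAM120B lie close together, and cannot be assigned to either gene. At the canonical start site only Parental replicate 1 had a summit. The DLL1 site 38.4 kb beyond the 5′ end, inside FAM120B (chr6:170653716-170654567), ranked at 32.4, 49.4 and 0 in parental and 83.0, 84.5 and 49.2 in SAP30-KO1 cells. Only the lowest SAP30-KO1 value fell among the parental ones, just below their highest (two-sided exact permutation p = 0.2).

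JAG2 (chr14:105607319-105635161, minus strand), the second Jagged ligand, had no promoter summit and no site in all 6 libraries. Its strongest site, 30.4 kb upstream and intergenic (chr14:105665231-105665924), ranked at 70.3, 73.6 and 0 in parental and 1.06, 0 and 0 in SAP30-KO1 cells, so that Parental replicate 3 lay with the SAP30-KO1 libraries (two-sided exact permutation p = 0.4). The other JAG2 site, 7.58 kb upstream, had a close mean rank over all libraries (23.2 against 24.2) and differed the other way. It ranked at 0, 0 and 46.3 in parental and 62.2, 24.6 and 6.43 in SAP30-KO1 cells, with overlap (two-sided exact permutation p = 0.5). DLL4 (chr15:41221538-41231271, plus strand), a ligand of sprouting vessels, likewise had no promoter summit. Its strongest site was the promoter of the noncoding gene ENSG00000251161, 22.8 kb upstream, with ranks of 93.9, 76.8 and 0 in parental and 77.7, 85.1 and 62.9 in SAP30-KO1 cells (two-sided exact permutation p = 0.8). Both genes thus showed open chromatin only at a distance, and at the DLL4 site 5 of the 6 libraries had a summit.

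Among the targets, HES1 (chr3:193853937-193856521, plus strand), a basic helix-loop-helix repressor directly switched on by Notch, had promoter ranks of 71.7, 3.66 and 0 in the parental and 10.3, 13.8 and 43.2 in the SAP30-KO1 libraries. The parental libraries held both the highest and the lowest value (25.1 ± 40.4 and 22.4 ± 18.1, SD, n = 3; two-sided exact permutation p = 1). The sign of the difference, -2.71, depended on single libraries: without Parental replicate 1 the groups no longer overlapped and the difference was 20.6. It was also positive without SAP30-KO1 replicate 1 (3.36) or 2 (1.59), and it was -10.8 when peaks were kept up to a q value of 0.0001.

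At both upstream HES1 sites printed above, every SAP30-KO1 library ranked above every parental one. The near one, 1.1 kb before the start site (chr3:193852378-193853091) and at the start of the noncoding RNA gene ENSG00000289385, ranked at 72.8, 38.0 and 67.9 in the parental and 83.1, 84.4 and 77.6 in the SAP30-KO1 libraries. It was present in all 6 libraries, and the lowest SAP30-KO1 rank exceeded the highest parental rank (59.6 ± 18.8 and 81.7 ± 3.59, SD, n = 3; two-sided exact permutation p = 0.1, the smallest possible, adjusted p = 0.988). Leaving out Parental replicate 2 lowered the difference from 22.1 to 11.4, still without overlap. Because it lies just outside 1 kb, widening the promoter to 2.5 kb made it the HES1 promoter value, and HES1 was then the one member whose groups did not overlap.

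The far HES1 site, 44.6 kb upstream (chr3:193808715-193809538) at the start of the noncoding RNA gene ENSG00000229964, ranked at 0, 0 and 23.6 in parental and 77.2, 80.7 and 62.6 in SAP30-KO1 cells. The groups were far apart, although 1 parental library had a summit (7.87 ± 13.6 and 73.5 ± 9.63, SD, n = 3; difference 65.7; two-sided exact permutation p = 0.1, the smallest possible, adjusted p = 0.988). With summits widened by 100 bp the groups overlapped and the difference was 19.05. The neighbouring site 46.5 kb upstream had groups that overlapped, at 85.1, 81.4 and 74.1 in parental and 71.2, 77.5 and 89.6 in SAP30-KO1 cells (two-sided exact permutation p = 1).

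HEY1 (chr8:80674606-80680092, minus strand), a repressor related to HES1, had promoter ranks of 30.5, 41.3 and 83.5 in the parental and 33.1, 70.8 and 41.9 in the SAP30-KO1 libraries. All 6 libraries had a summit and the groups overlapped (51.8 ± 28.0 and 48.6 ± 19.7, SD, n = 3; two-sided exact permutation p = 0.9). In the limma fit the difference was -3.15 with a standard error of 16.9 (adjusted p = 0.990). It was 12.7 without Parental replicate 3, 4.59 without SAP30-KO1 replicate 1 and 0.203 without SAP30-KO1 replicate 3, and it was -27.7 with a promoter of 500 bp. The strongest HEY1 site outside the promoter, 27.3 kb upstream, ranked at 54.2, 43.1 and 51.1 in parental and 20.5, 79.7 and 18.2 in SAP30-KO1 cells (two-sided exact permutation p = 0.8). The parental values at that site lay inside the wider range of the SAP30-KO1 libraries.

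The HEY1 site 16.01 kb upstream (chr8:80695572-80696545), at a promoter of the noncoding gene LINC01607, was the only Notch locus that was lower in SAP30-KO1 without overlap. It ranked at 81.7, 72.7 and 43.6 in parental and 0, 35.9 and 0 in SAP30-KO1 cells (66.0 ± 19.9 and 12.0 ± 20.8, SD, n = 3; difference -54.0; two-sided exact permutation p = 0.1, the smallest possible, adjusted p = 0.988). Every parental library had a summit there, against 1 of 3 SAP30-KO1 libraries. With the deposited score in place of the rank the groups overlapped.

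**Figure D3:**
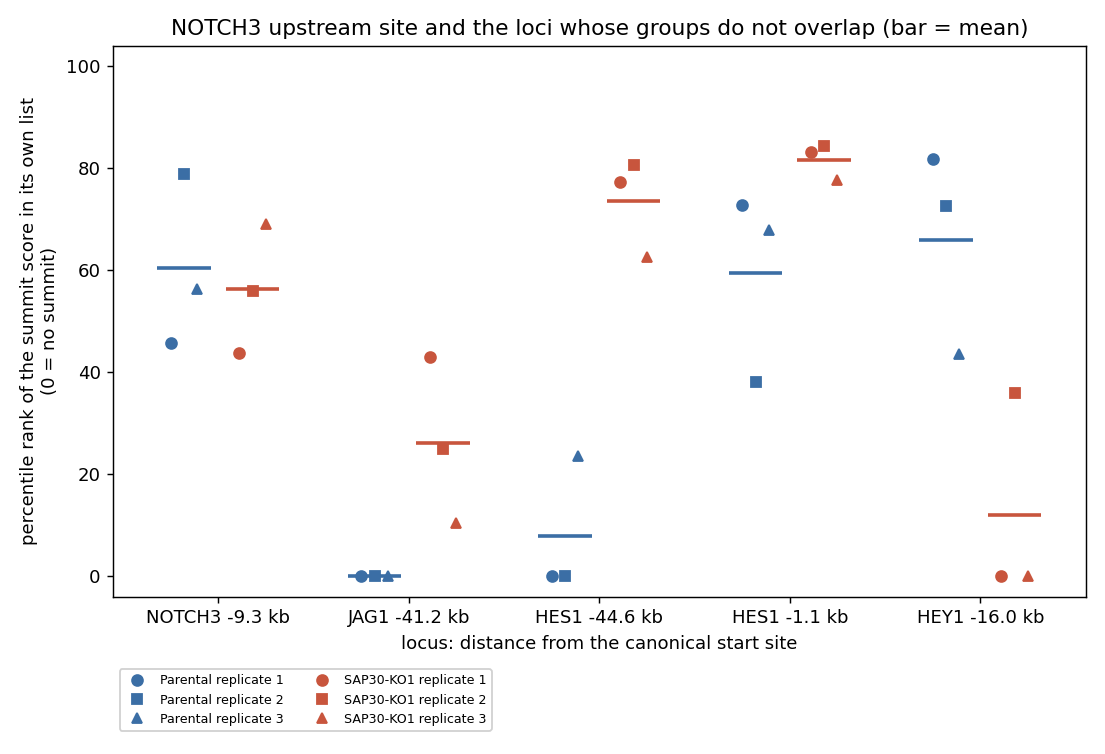
Percentile ranks (y axis, 0 for no summit) of the NOTCH3 upstream site and of the 4 Notch loci whose groups did not overlap, with 1 point per library and a bar at the mean of 3. The NOTCH3 groups overlap, the JAG1 and both HES1 sites are higher in SAP30-KO1 and the HEY1 site is lower.

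In all, the groups did not overlap at 4 of the 41 Notch loci (9.76%), 3 higher and 1 lower in SAP30-KO1, and at 10.1% of all 56419 union loci (5.86% higher and 4.26% lower). The share among Notch loci was thus near that of the background, and these 4 loci are not set apart from other loci by their number. No receptor locus was among them. Non-overlap of 3 against 3 libraries always gives an exact permutation p of 0.1, so that p adds no support for these 4 loci. Leaving out any 1 library made the condition easier to meet and gave 5 to 9 such loci. There were 8 without Parental replicate 1 and 9 without Parental replicate 3. No share over all union loci is given for these settings, so these counts have no background beside them.

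**Figure D4:**
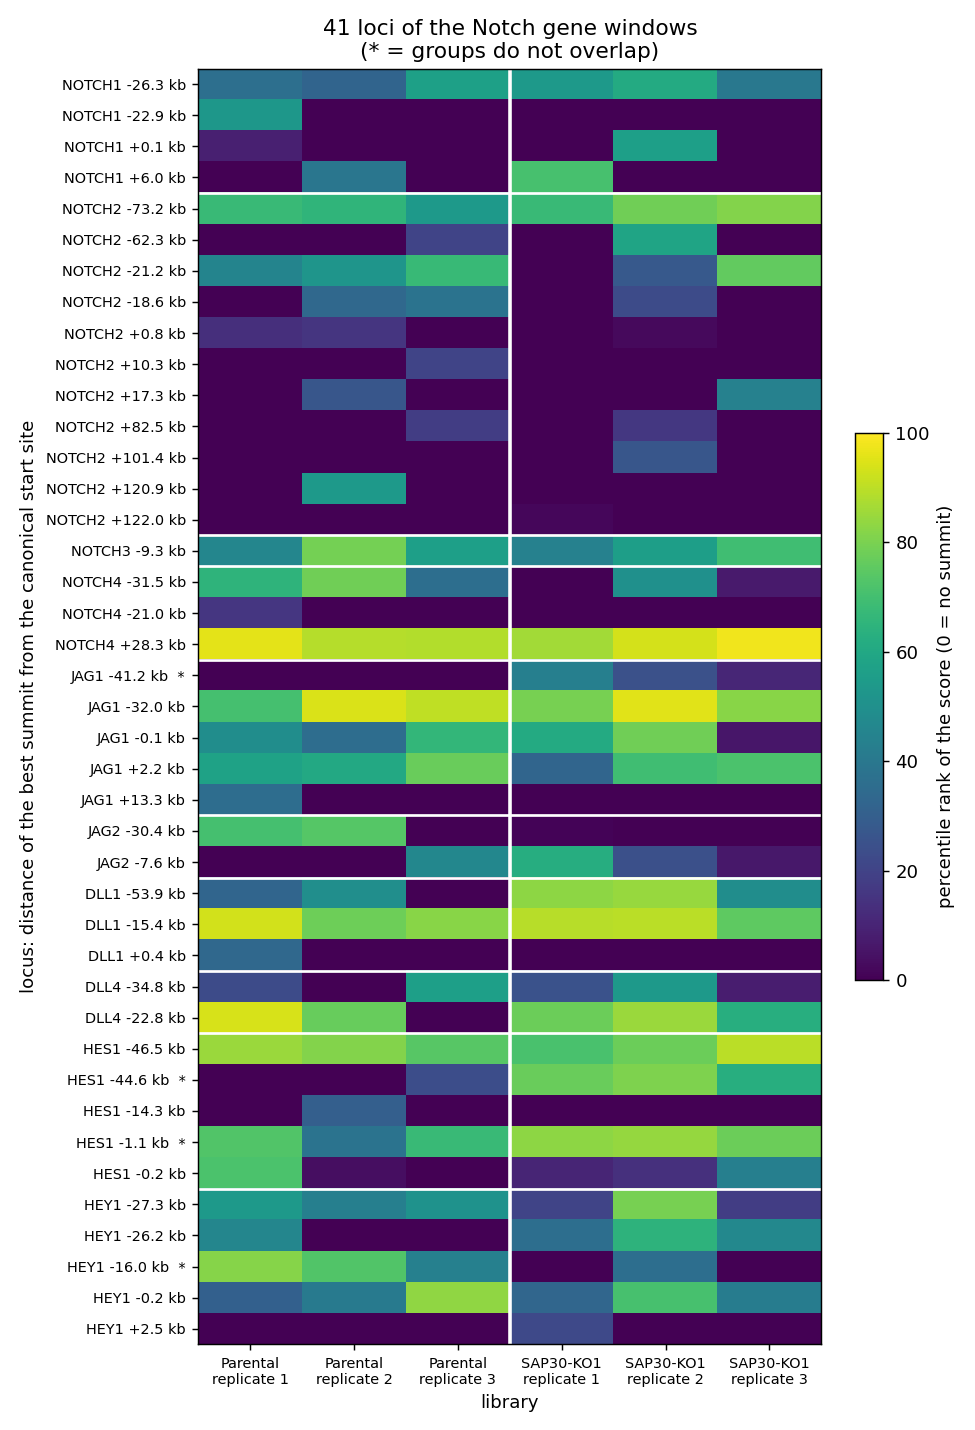
Percentile rank (colour, 0 to 100, 0 for no summit) of the 41 Notch loci (rows, named by gene and distance from the canonical start site in kb) in the 6 libraries (columns). Asterisks mark the 4 loci whose groups do not overlap, and 10 of the rows have colour in a single library.

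The wider pathway was described with 49 further genes: other ligands and receptor-modifying enzymes, the proteases, the nuclear complex, regulators of receptor turnover and other HES and HEY genes. A promoter summit was present in any library for 35 of them (71.4%, against 62.3% of all protein-coding genes) and in all 6 for 16. The groups did not overlap for 6 of the 35 (17.1%, against 10.6% of all genes), 5 higher and 1 lower in SAP30-KO1. Each of the 6 had an exact permutation p of 0.1, the smallest possible, and an adjusted p of 0.945 over all genes. Non-overlap fixes the p of 0.1, which therefore adds no support. Limma called none of the 16 that it could test (lowest adjusted p = 0.703), with NUMB (0.00734) and TLE1 (0.0443) at an unadjusted p under 0.05. The median difference over the 35 genes was 4.56 percentile points.

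ADAM17, a metalloprotease that cuts the receptor outside the membrane, ranked at 88.1, 77.2 and 81.6 in parental and 91.8, 91.1 and 93.1 in SAP30-KO1 cells. PSEN2, a catalytic subunit of γ-secretase, ranked at 28.6, 0 and 48.6 in parental and 77.8, 56.6 and 60.6 in SAP30-KO1 cells. ADAM17 was thus open in all libraries, while PSEN2 was called in all but Parental replicate 2, and both were higher in every SAP30-KO1 library than in any parental one. The ranks of NCSTN, APH1A and APH1B, which encode noncatalytic subunits of γ-secretase, overlapped between the groups, as did those of the metalloprotease gene ADAM10. For APH1A the overlap was narrow, with 36.9 as the lowest SAP30-KO1 and 38.4 as the highest parental rank, and there was none at a q value of 0.0001 or less, with ranks within the chromosome arm, with the deposited score, or without Parental replicate 3 or SAP30-KO1 replicate 1. PSENEN, a further noncatalytic subunit gene, had no promoter summit in any library.

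FBXW7, the ubiquitin ligase subunit that marks the intracellular domain for degradation, ranked at 82.5, 67.2 and 76.5 in parental and 85.6, 90.6 and 89.3 in SAP30-KO1 cells. NUMB, an inhibitor of Notch, ranked at 98.3, 95.1 and 97.5 in parental and 91.5, 90.9 and 89.6 in SAP30-KO1 cells. NUMB was the single gene of the list that was lower without overlap, by -6.31 percentile points at a promoter that stayed among the highest in every library. The rank of the DNA-binding partner RBPJ overlapped (60.7 ± 6.01 and 74.7 ± 18.1, SD, n = 3; two-sided exact permutation p = 0.2). It was higher in SAP30-KO1 without overlap when Parental replicate 1 or SAP30-KO1 replicate 1 was left out. With every list cut to the length of the shortest, ADAM17 and FBXW7 were still higher and NUMB still lower without overlap, DTX4 was also lower, and the PSEN2 groups overlapped. Without Parental replicate 1 or SAP30-KO1 replicate 1 there were 10 such genes. Leaving out a library makes non-overlap easier to meet, and no share over all genes is given for these settings.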

How the data were processed

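The 6 libraries were grouped and numbered by their labels. According to the submitters' processing notes and the study's methods, 75 bp single-end reads were checked with FastQC 0.11.2, trimmed with Trim Galore 0.4.5, aligned to hg19 with Bowtie2 2.3.3.1, freed of duplicates with Picard and used to call peaks with MACS2 2.1.0. Shifting of reads for the transposase offset, blacklist filtering and the treatment of multiply aligned reads are not given in the sources used here, and an offset of a few bases is small beside the windows used. The deposited lists hold 1 summit per peak with a score that the authors' peak caller gave as the −log10 of the q value. The unit was read from the values, whose lowest in each list barely exceeded that of a q value of 0.05. Lists were called per library, so depth is unknown, no counting interval can be given, and scores were replaced by percentile ranks within each list.

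Genes, start sites and coordinates were those of GENCODE release 44 mapped to GRCh37. The 10 members and the 49 wider genes were chosen with earlier results of these data known, so no list was tested as a set and no p was adjusted over a list alone. A gene or locus was apart when every value of one group exceeded every value of the other. Single values were compared with the exact permutation test over the 20 assignments of the 6 libraries, two-sided, with Benjamini-Hochberg adjustment over all genes with a promoter summit or over all union loci. Limma 3.58.1 in R 4.3.3, with a mean-dependent prior variance, was fitted to promoter ranks of genes with a summit in all 6 libraries. Other steps used Python 3.11.15 with numpy 2.4.6, pandas 2.3.3, scipy 1.17.1, pysam 0.24.0 and matplotlib 3.10.9. The exact permutation test and the limma fit were tried on simulated data, and the sign-flip test was not. The text names all 10 members, every NOTCH3 locus, for each other member its highest-ranked locus outside its promoter, every locus of that member present in all libraries of one group and none of the other, and that member's locus with groups apart and the largest difference, together with wider genes with groups apart, and SAP30. The NOTCH4 site at TSBP1-AS1 and the JAG1 site at 2.21 kb were named after their values were seen. So were the JAG2 site at -7.58 kb and the HES1 site at -1.1 kb. The same holds for TLE1, RBPJ, DTX4, ADAM10 and the γ-secretase genes with overlap. Some of the wider genes with groups apart, and the sequence of 1 site, are not reported here. PECAM1, planned as an endothelial marker, was not matched in the protein-coding annotation and is not reported. Alternatives were stricter q values, equal list lengths, other promoter, upstream and merging widths, canonical start sites, ranks within a chromosome arm, the deposited score, omission of each single library and a replicate block.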

Additional observations from a re-analysis of the deposited data

How the results depend on the processing

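There were 3 libraries per group, and the summit lists hold no read counts, so the depth behind each value is unknown. The exact test cannot pass 0.05 here, so stability is described by direction and size. The summit difference of 1.67 became -1 with lists cut to equal length and -0.333 with 10 kb upstream. The difference in members with a promoter summit became 0 when peaks were kept up to a q value of 0.0001. The mean promoter rank difference of -0.184 percentile points became 0.146 in score units (−log10 q) with the deposited score. Differences by score can be compared with rank differences in sign only. The JAG1 promoter difference became 6.87 at a q value of 0.0001 or less, 5.48 with promoters of 2.5 kb and 1.02 by score. DLL1 became -0.792 with equal list lengths and -11.3 at canonical start sites only, and HES1 became 22.1 with promoters of 2.5 kb and 0.613 by score. Members apart became 1 (HES1) with promoters of 2.5 kb, which take in the site at -1.1 kb, and Notch loci apart became 1 with 10 kb upstream, where 23 loci remain to be counted. Wider genes apart, 6 by overlap, were 0 by limma with or without the replicate block. What caused the remaining changes was not tested.

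Leaving out 1 library at a time gave summit differences of -0.667 to 3.83, members with a promoter summit of -1 to 0.167, mean ranks of -5.01 to 2.92, 0 to 1 members, 5 to 9 loci and 7 to 10 wider genes apart, and NOTCH3 summit differences of 0 to 0.5. Fewer libraries make non-overlap easier to meet, and no shares over all genes or loci are given for these settings. By gene the ranges were -2.92 to 25.2 for NOTCH1, -16.6 to 19.5 for JAG1, -2.92 to 5.01 for DLL1, -15.3 to 20.6 for HES1, -14.2 to 12.7 for HEY1 and -11.3 to 5.24 for the NOTCH3 site. The single member apart was HES1 without Parental replicate 1 and NOTCH2 without SAP30-KO1 replicate 2. Libraries with the same number did not deviate together in rank (correlations of -0.018, -0.0286 and 0.0115). This cannot tell whether they were prepared together, which the labels do not state. With the replicate block the summit difference of 1.67 had an exact sign-flip p of 0.75, where 0.25 is the smallest possible, and limma called 0 of 6966 genes. Restricting the mean rank to the 6 members with a promoter summit (-0.307), and leaving out start sites shared with another protein-coding gene, which removes the DLL1 summit, were chosen after seeing the data and changed no call.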
